A study of Rattus norvegicus with 6 samples.

Results

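Reads of mature miRNAs that end in an A or a T which the precursor does not encode were examined in AR42J cells, a rat cell line of the exocrine pancreas. A read was counted as tailed when its only mismatch to the miRNA precursor lay at its last base, it had no insertion or deletion, and that last base was A or T. T in the sequenced cDNA stands for U in the RNA. By this rule 3371129 of 20610833 miRNA reads were tailed, 1867568 with A and 1503561 with T, and they held 4780 of the 53526 distinct sequences. Shares were computed for the 176 of 666 miRNA arms that had 1000 or more reads over all libraries, where an arm is the 5p or 3p strand of a hairpin. Of these, 14 are shared by several miRNAs whose reads could not be told apart.

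The study compared 3 libraries of untreated AR42J cells with 3 libraries of AR42J cells given 200 µM sodium taurocholate, a bile salt, for 30 min. Total RNA was treated before library preparation to remove 3′ aminoacyl and cyclic phosphate groups, to phosphorylate 5′ ends and to demethylate m1A and m3C, so that modified tRNA fragments could be ligated and copied. The labels do not say whether the replicates were separate cultures, so a p-value here reflects only how much these libraries vary, and that variation may be technical. The libraries held 2791878 to 3987307 miRNA reads each. Of the miRNAs known from acinar pancreas, miR-148a-3p had a CPM (miRNA reads scaled to library size) of 283926 to 421621, miR-216a-5p was at 0 in all 6 libraries, and miR-217-5p and miR-216b-5p were at 0 to 1.10. Of the markers of other cells, miR-143-3p of muscle and stroma was at 9662 to 13392 and miR-145-5p at 274 to 584. miR-142-3p of blood cells was at 948 to 2189, miR-142-5p at 589 to 1242 and miR-223-3p at 0.251 to 4.66. miR-451-5p of red cells was at 32.5 to 1148. miR-1-3p was at 0 to 4.89, miR-133a-3p at 0.251 to 61.9, miR-122-5p at 6.88 to 26.7 and the endocrine miR-375-3p at 2.51 to 77.5. The separate entry miR-1b, not among the listed markers, was far more uneven. It had 3886, 38 and 108 reads in untreated replicates 1 to 3, and 350, 303 and 2087 in taurocholate replicates 1 to 3. The libraries thus differed widely in several of these markers, and whether their cell content differed was not tested.

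Terminal nucleotidyl transferases add single nucleotides to the 3′ end of mature miRNAs and of their precursors. TUT4 and TUT7 add U, and with LIN28 they uridylate the precursor of let-7 and block its processing. TENT2 (GLD-2) adds A, which is known to stabilise miR-122 in liver, and PAPD5 adenylates miR-21. Tailing and trimming also accompany the decay of miRNAs that pair extensively with a target, as described for miR-7 and miR-27. A tail added after cleavage leaves the seed, the bases that pair with targets, unchanged.

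The sequences below are the most frequent reads of each kind for the arms on which the results turn, 5′ to 3′, as in the deposited tables. Capitals mark the seed (bases 2 to 8) and, in tailed reads, the tail. The first set holds the 2 most abundant arms, miR-148a-3p and miR-21-5p, and the relatives of miR-148a-3p, miR-148b-3p and miR-152-3p, which have its seed, and let-7i-5p, an abundant let-7 member with tails of both kinds.

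miR-148a-3p, error-free: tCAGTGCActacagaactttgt
miR-148a-3p, A tail: tCAGTGCActacagaactttgA
miR-148b-3p, error-free: tCAGTGCAtcacagaactttgt
miR-148b-3p, T tail: tCAGTGCAtcacagaactttgtT
miR-152-3p, T tail: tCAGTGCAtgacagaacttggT
miR-21-5p, error-free: tAGCTTATcagactgatgttgac
miR-21-5p, A tail: tAGCTTATcagactgatgttgacA
miR-21-5p, T tail: tAGCTTATcagactgatgttgaT
let-7i-5p, error-free: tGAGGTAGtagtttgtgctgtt
let-7i-5p, A tail: tGAGGTAGtagtttgtgctgtA
let-7i-5p, T tail: tGAGGTAGtagtttgtgctgttT

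The second set holds arms with a high A share, of which miR-17-5p, miR-20a-5p and miR-93-5p share a seed, and miR-28-5p and miR-708-5p share another.

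miR-17-5p, A tail: cAAAGTGCttacagtgcaggtagA
miR-20a-5p, A tail: tAAAGTGCttatagtgcaggtagA
miR-93-5p, A tail: cAAAGTGCtgttcgtgcaggtagA
miR-27a-3p, A tail: tTCACAGTggctaagttccgA
miR-21-3p, A tail: cAACAGCAgtcgatgggctgtA
miR-28-5p, A tail: aAGGAGCTcacagtctattgagA
miR-708-5p, A tail: aAGGAGCTtacaatctagctggA

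The third set holds arms with a high T share.

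miR-130a-3p, T tail: cAGTGCAAtgttaaaagggcatT
miR-331-3p, T tail: gCCCCTGGgcctatcctagaaT
miR-23b-3p, T tail: aTCACATTgccagggattaccacT
miR-143-3p, T tail: tGAGATGAagcactgtagctcT
miR-192-5p, T tail: cTGACCTAtgaattgacagccaT
miR-486-5p, T tail: tCCTGTACtgagctgccccgagT

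The last set holds the arms whose tailed share passed the test between treatments, 2 for A (miR-148a-3p, above, and miR-365-3p) and 4 for T.

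miR-365-3p, A tail: tAATGCCCctaaaaatccttaA
miR-196b-5p, T tail: tAGGTAGTttcctgttgttgggT
miR-20a-5p, T tail: tAAAGTGCttatagtgcaggtaT
miR-151-3p, T tail: cTAGACTGaggctccttgaggT
miR-100-5p, T tail: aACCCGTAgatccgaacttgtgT

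Mismatches were concentrated at the last base in every library, and 2 libraries stood apart in which base they carried there. A mismatched base was found at the last position of 27.2% to 41.5% of miRNA reads. At the second-to-last position the same base exchange was far rarer, at 0.142% to 0.174% for A and 0.214% to 0.279% for T. Last A made up 6.63%, 8.24% and 8.40% of reads in untreated replicates 1 to 3 and 8.60%, 10.6% and 11.3% in taurocholate replicates 1 to 3. Last T made up 7.17%, 6.56% and 7.21% in untreated libraries and 5.73%, 8.05% and 8.92% with taurocholate. Mismatched C made up 9.31%, 11.2% and 10.2% in untreated libraries and 5.09%, 8.03% and 7.80% with taurocholate. Mismatched G lay between 1.20% and 1.90% in 4 libraries but reached 5.32% in untreated replicate 1 and 22.1% in taurocholate replicate 1. The share of error-free reads in taurocholate replicate 1 was 50.9%, against 62.3% to 65.7% in the other libraries. A higher share of 1 last base leaves less for the others. Differences in the share of all miRNA reads and counts of called arms, for A and T, are therefore also given without these libraries. The comparisons by templated base, the differences in means over arms and the counts of arms whose groups were apart are given with all libraries only.

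miR-21-5p and miR-148a-3p supplied most of the tailed reads. miR-21-5p, which is raised in many tumours and in proliferating cells, gave 29.7% of all A-tailed and 52.2% of all T-tailed reads, while it held 23.3% of all miRNA reads. miR-148a-3p, an abundant miRNA of acinar cells, gave 25.4% of the A-tailed reads and held 35.8% of all reads. Its T share was 0.260% ± 0.0501 (SD over 6 libraries), and its most frequent read ends in a templated T, where an added T would match the precursor. A T added where the precursor also has a T, or an A where it has an A, cannot be seen by this rule.

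What the last base was therefore depended on the base that the precursor encodes there. Among reads that matched up to their last base, a templated T was read as A in 7.81% ± 0.976 (SD, n = 3) of untreated and 11.3% ± 1.35 (n = 3) of taurocholate reads. A templated C was read as T in 35.2% ± 4.99 of untreated and 31.9% ± 5.74 of taurocholate reads. A templated G was read as A in 22.7% ± 1.503 of untreated and 20.4% ± 4.48 of taurocholate reads. A templated A was read as T in 24.2% ± 3.31 of untreated and 15.5% ± 3.25 of taurocholate reads. The taurocholate and untreated libraries did not overlap for A over templated T, nor for T over templated A or templated G (exact permutation p = 0.1 for each, two-sided, the smallest that 3 against 3 libraries allow, and 0.2 adjusted over the 6 such pairs of bases). They overlapped for T over templated C and for A over templated C or G. These shares pool the reads of all arms, so the most abundant arms weigh most in them. Of the 7369794 reads of miR-148a-3p, 91.4% ended 1 base beyond its RefSeq form, over a templated T. Of the 4800341 reads of miR-21-5p, 51.2% ended 1 base beyond its RefSeq form, over a templated C.

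The arms differed from one another more than the libraries did. Of the 14 arms shared by several miRNAs, 6 had 0 reads with any mismatched last base. How a shared arm is formed can set its share in either direction, so this description uses the 162 arms of 1 miRNA. That does not remove the effect, since tailed reads sent to a shared arm are missing from the arms of 1 miRNA. miR-103-3p, among the 162, had 4 A-tailed of 14258 reads. The lowest shares and the SD among arms may thus still depend on how arms were formed. Over the 162 arms the mean A share ran from 0% to 35.1% with a median of 9.16%, and 69 arms lay above 10%. Its SD among arms was 5.70 percentage points, against a median SD among libraries of 1.78. The mean T share ran from 0.0316% to 60.3% with a median of 9.46%, and 42 arms lay above 20% while 23 lay under 1%. Its SD among arms was 13.2 percentage points, against 2.41 among libraries.

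Among arms with 1000 or more reads that end over a templated T, the last base was C in a nearly constant share, and the A share varied more widely. In these 98 arms the quartiles of the C share were 12.2% and 13.3%, and those of the A share 6.48% and 11.6%. Here and in the comparison by templated base above, tailed reads whose precursors encode unlike last bases were left out, while error-free reads were kept. miR-17-5p, with C or T there, could thus not be ranked. Of its reads with 1 base beyond its RefSeq form, 67.5% were A. miR-20a-5p, a member of the miR-17-92 cluster, was read with A in 57.9% of 4704 reads over a templated T, the highest of the 98 by this count. Its values were 42.5%, 59.9% and 54.6% in untreated libraries and 51.0%, 72.1% and 64.2% with taurocholate. miR-93-5p, of the related miR-106b-25 cluster and with the same seed, had 28.6%, and miR-21-5p had 24.7% of 1565686 reads. miR-148a-3p (6.9%), miR-7a-5p (6.9%) and let-7i-5p (7.2%) lay near the median of 7.76%.

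By mean share of all its reads, A was highest in reads that miR-103-3p and miR-107-3p share, at 38.2% ± 4.85 (SD, n = 6). These reads reach that group only if they stop before the base that tells the 2 miRNAs apart or carry a mismatch there, so its share is raised by how it is defined, and the same holds for the reads shared by miR-27a-3p and miR-27b-3p (28.0%). miR-21-3p, the passenger strand of miR-21, had 35.1% ± 6.10 of 1369 reads. miR-17-5p, which gives the miR-17-92 cluster its name, had 32.3% ± 4.63 of 9448 reads. The most frequent A-tailed read, 2128 of its 3027, lies over a base that is C in 1 precursor and T in another. An A there mismatches each of them, so such reads always match more than 1 precursor. A C or T there matches 1 precursor without error. Among reads with a single precursor the miR-17-5p share was 3.64%. That limit removes these A tails by rule, so it cannot check the 32.3%.

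miR-27a-3p, one of the miRNAs known from target-directed decay, had the most reads of the 10 arms with the highest A share. Its values were 26.6%, 31.9% and 32.3% in untreated libraries and 19.9%, 34.6% and 33.7% with taurocholate, over 153480 reads, and the groups overlapped. Taurocholate replicate 1 was the lowest of the 6. Where its reads ended over a templated C, 40.8% were A and 38.8% T, against medians of 10.7% and 37.9% over 60 arms. Its paralog miR-27b-3p, with the same seed, had a T share of 27.8% ± 4.11.

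T shares above 40% were found in 9 arms. miR-130a-3p had the highest, with 67.3%, 63.6% and 63.6% in untreated libraries and 46.6%, 64.9% and 56.0% with taurocholate. miR-331-3p had 56.4% ± 9.52 (SD, n = 6), miR-23b-3p 55.7% ± 9.55, and the 3p strand that let-7a-1 and let-7c-2 share 50.4% ± 6.58. let-7f-1-3p had 49.7% ± 6.21 and miR-652-3p 45.1% ± 9.33. In each of these 6 arms taurocholate replicate 1 was the lowest library.

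miR-143-3p, a miRNA typical of smooth muscle and stroma, had the most reads of the 10 arms with the highest T share. It had 46.9%, 44.8% and 47.0% in untreated libraries and 34.9%, 42.8% and 43.7% with taurocholate, over 241055 reads. The taurocholate libraries all lay below the untreated, and edgeR's quasi-likelihood test gave a log2 ratio of -0.19 ± 0.25 (SE) with an adjusted p of 0.711. miR-192-5p (41.9% ± 3.73), an epithelial miRNA, and miR-148b-3p (40.8% ± 5.24) lay close to it, and miR-486-5p, a miRNA rich in red cells, had 38.0% ± 8.81.

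At the ends where these T tails sat, the mix of 4 last bases was close to that of arms with a templated T. The shares of single arms at 1 end, here and elsewhere unless libraries are named, pool the reads of all 6 libraries. Libraries were unlike in G. Over all templated T ends it was 31.6% in taurocholate replicate 1, 6.64% in untreated replicate 1 and 1.54% to 2.63% in the others. T at those ends was 50.4% in taurocholate replicate 1 and 72.0% to 74.8% in the others. miR-148b-3p over a templated C had 6.9% A, 13.4% C, 6.9% G and 72.8% T, and its family member miR-148a-3p over a templated T had 6.9% A, 12.5% C, 6.9% G and 73.7% T. miR-192-5p over a templated G had 7.1% A, 11.8% C, 10.6% G and 70.5% T. miR-143-3p over a templated A had 14.7% A, 12.5% C, 8.5% G and 64.3% T. Over 60 arms with a templated C the median T share was 37.9%, over 76 arms with a templated G it was 5.37%, and over 51 arms with a templated A it was 10.1%.

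miR-21-5p carried its 2 tails at neighbouring ends, as the sequences above show. After the 22 bases of its RefSeq mature form (RefSeq, GRCr8, chromosome 10, 71902653 to 71902674, minus strand) the precursor encodes C, and reads with 1 base beyond were 61.0% C, 31.0% T and 6.2% A. One base further the precursor encodes T, and there 24.7% of reads were A. Its A share was 9.69%, 10.96% and 11.4% in untreated libraries and 10.3%, 13.0% and 13.0% with taurocholate. Its T share was 17.96%, 13.8% and 16.2% in untreated libraries and 11.4%, 19.4% and 19.0% with taurocholate. Both overlapped between the groups. miR-148a-3p differs in that 91.4% of its reads had exactly 1 base beyond its RefSeq form of 21 bases (GRCr8, chromosome 4, 81664447 to 81664467, minus strand), while 0.0560% stopped there without error.

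Most tailed reads carried the tail at or next to the annotated mature end. This was measured over the arms placed on a RefSeq mature sequence, with no minimum of reads, of which 126 had 1000 or more reads. The base before the tail was the last base of the mature form in 43.6% ± 3.55 (SD, n = 6) of A-tailed and 65.0% ± 4.62 of T-tailed reads. It was 1 base short of the end in 19.3% ± 1.82 of A-tailed and 19.3% ± 3.06 of T-tailed reads, and 1 base past it in 24.6% ± 1.11 and 4.11% ± 0.561. T-tailed reads were 23 nt long in 68.1% ± 4.12, whereas A-tailed reads were mostly 22 nt (41.3% ± 2.05) or 24 nt (27.6% ± 1.38). Error-free reads were 22 nt in 60.3% ± 4.68. These shares count reads and not arms, so they largely describe miR-21-5p and miR-148a-3p. The 23-nt T-tailed read of miR-21-5p shown above held 762891 of the 1503561 T-tailed reads. Of the 1867568 A-tailed reads, the 22-nt read of miR-148a-3p held 465135 and the 24-nt read of miR-21-5p 385452.

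T tails were more frequent on 3p than on 5p arms when all reads of an arm were counted. The median T share over 78 3p arms was 20.6%, 17.3% and 19.97% in untreated libraries and 10.6%, 16.3% and 16.9% with taurocholate. Over 98 5p arms it was 4.91%, 4.18% and 4.24%, and 2.82%, 4.52% and 4.29%. The 3p arms were higher in 6 of 6 libraries, by 12.8 percentage points on average (exact sign-flip test, two-sided p = 0.031, the smallest that 6 libraries allow). Each library measures the same arms, so this test and those below reflect only how well a difference repeats over libraries. They do not weigh it against the spread among arms, whose SD was 13.4 percentage points for T and 6.42 for A. Over reads that end at a templated C alone, the only templated base for which this was computed, 32 3p arms minus 28 5p arms gave 0.595, 1.94 and 1.67 percentage points in untreated replicates 1 to 3 and -0.901, -1.33 and -1.14 in taurocholate replicates 1 to 3. The sign thus differed between the treatments, and the mean of 0.138 (exact sign-flip p = 0.8125) averages opposite values. For A the 3p arms were lower by 0.779 percentage points on average, in 6 of 6 libraries (exact sign-flip p = 0.031). That difference was -0.0841 with arms of 100 or more reads, and 0.700 with the opposite sign over reads that end at a templated T (35 3p and 63 5p arms, exact sign-flip p = 0.0625).

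Tail levels were described by family, and no test between families was made. The 9 let-7 arms had A shares of 5.71% to 10.2% with a median of 7.30%, against 8.82% over all arms. Their T shares were 0.0316% to 5.21% with a median of 0.647%, against 8.91% over all arms, and the most frequent read of let-7f-5p, the lowest, ends in a templated T. let-7i-5p, which ends before a templated G, had 42.3% A and 43.1% T among reads with 1 base beyond its RefSeq form of 22 bases. The 7 measured miR-30 arms had a narrow range of A shares, 9.16% to 11.4%, and T shares from 3.89% (miR-30b-5p) to 35.6% (miR-30e-3p). The 7 arms of the miR-10/99/100 and miR-125 list had A shares of 11.4% to 19.0% with a median of 14.2%, led by miR-99b-5p. miR-152-3p had an A share of 15.5% ± 3.40 (SD, n = 6), above miR-148a-3p (6.43% ± 1.79) and miR-148b-3p (6.46% ± 1.54). In the miR-200 family, which marks epithelial cells, miR-200b-3p had 30.0% ± 5.67 T and miR-200a-3p 3.50% ± 2.38. The 3 measured miR-181 arms had 8.72% to 13.4% A and 2.81% to 3.13% T. Of the 6 listed mirtrons, whose precursors are spliced introns, none had 1000 reads. miR-26a-5p, whose uridylation is known, had 5.74% ± 0.882 T.

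Taurocholate libraries had a higher share of A-tailed miRNA reads, and the design could not place this below a p of 0.1. The share was 7.76% ± 0.976 (SD, n = 3) in untreated and 10.2% ± 1.41 (n = 3) in taurocholate libraries, a difference of 2.42 percentage points. Every taurocholate library lay above every untreated one (exact permutation p = 0.1, two-sided, 0.2 adjusted over the A and T tests). Without taurocholate replicate 1 the difference was 3.21, and without both replicates 1 it was 2.65 percentage points. With each arm counted equally the difference was 1.30 percentage points and the groups overlapped (exact permutation p = 0.3), with 7.99%, 9.29% and 9.51% in untreated replicates 1 to 3 and 8.25%, 10.95% and 11.5% in taurocholate replicates 1 to 3. The T share was 6.98% ± 0.363 in untreated and 7.57% ± 1.65 in taurocholate libraries, and the groups overlapped (difference 0.583, exact permutation p = 0.5, adjusted 0.5). The T difference was 1.502 without taurocholate replicate 1 and -0.0955 without taurocholate replicate 3. As a mean over arms it was -2.66 (exact permutation p = 0.1). Those means were 15.0%, 13.3% and 14.0% in untreated replicates 1 to 3 and 8.52%, 13.1% and 12.8% in taurocholate replicates 1 to 3. Taurocholate replicate 1 thus lay far below the other libraries.

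Arm by arm, 2 of 165 tested arms passed an adjusted p of 0.05 for a higher A share with taurocholate (1.21% of arms) and 0 for a lower one (0%), by edgeR's quasi-likelihood test on tailed reads with the arm's own reads as offset. At an unadjusted p under 0.05 there were 38 higher and 0 lower. miR-365-3p rose from 1.997%, 2.68% and 5.26% to 7.17%, 6.20% and 7.76%, a log2 ratio of 1.09 ± 0.27 (SE) with an adjusted p of 0.00913, and its groups did not overlap. It had 5037 reads in all, so each value rests on few tailed reads. miR-148a-3p rose from 4.24%, 5.19% and 5.40% to 6.89%, 8.11% and 8.78%, a log2 ratio of 0.68 ± 0.18 with an adjusted p of 0.0172, again without overlap. With the replicate number as a block 50 arms passed as higher and 1 as lower. Without taurocholate replicate 1, 65 arms passed as higher (39.4%) and 0 as lower (0%), both arms above among them. The call for miR-365-3p was lost without untreated replicate 1 (adjusted p = 0.25), untreated replicate 2 (0.26) or taurocholate replicate 3 (0.099). That for miR-148a-3p was lost without untreated replicate 1, 2 or 3 (0.25, 0.26 and 0.079) or taurocholate replicate 2 or 3 (0.19 and 0.33).

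Other abundant arms had A ratios in the same direction that did not pass the test. let-7f-5p had 4.06%, 4.60% and 4.96% in untreated libraries and 6.48%, 6.75% and 7.39% with taurocholate, with an adjusted p of 0.0706. With the replicate block its adjusted p was 0.00042, and without taurocholate replicate 1 it was 0.00028. miR-7a-5p, a miRNA of endocrine and neural cells, had 5.21%, 6.004% and 6.53% against 7.31%, 8.41% and 9.09% (adjusted p = 0.106, with the block 0.00042). let-7i-5p had 6.43%, 7.86% and 8.12% against 8.71%, 9.87% and 10.9% (adjusted p = 0.201, with the block 0.0020). miR-21-5p had a log2 ratio of 0.18 ± 0.18 with an adjusted p of 0.647, or 0.016 with the block. The reads shared by let-7a-5p and let-7c-5p, miR-484, and the 3p strand shared by let-7a-1 and let-7c-2 each had an adjusted p of 0.066, and with the block 0.017, 0.014 and 0.0058. In 43 of 176 arms every taurocholate library lay above every untreated one (24.4%), and in 0 arms below (0%).

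For T, 4 of 163 tested arms passed as lower with taurocholate (2.45%) and 0 as higher (0%) in the same test, and 34 and 1 at an unadjusted p under 0.05. miR-196b-5p, encoded in a HOX cluster, fell from 15.6%, 12.2% and 13.2% to 4.34%, 6.56% and 7.60%, a log2 ratio of -1.15 ± 0.26 (SE) with an adjusted p of 0.0020. miR-20a-5p fell from 2.19%, 0.923% and 1.41% to 0.250%, 0.567% and 0.755%, a log2 ratio of -1.47 ± 0.36 with an adjusted p of 0.00351. That rests on 159 T-tailed of 18042 reads, so on few tailed reads per library. The base after its main end is a templated T, where an added T cannot be seen. miR-151-3p fell from 20.6%, 17.5% and 18.1% to 7.46%, 10.0% and 11.2%, a log2 ratio of -0.97 ± 0.26 with an adjusted p of 0.00987. miR-100-5p fell from 5.21%, 3.94% and 4.22% to 1.69%, 2.71% and 2.75%, a log2 ratio of -0.90 ± 0.26 with an adjusted p of 0.0205. The groups did not overlap in any of the 4, and in each of them taurocholate replicate 1 was the lowest library and untreated replicate 1 the highest. With the replicate number as a block 0 arms passed in either direction (smallest adjusted p = 0.0599), with 19 lower and 0 higher at an unadjusted p under 0.05, so all 4 calls were lost. Without taurocholate replicate 1, 19 arms passed as lower (11.7%) and 7 as higher (4.29%), and 3 of the 4 arms were among them, with miR-20a-5p at an adjusted p of 0.051. The call was lost without untreated replicate 1 in all 4 (adjusted p = 0.22 to 0.38), without untreated replicate 3 in all 4 (0.052 to 0.19), and without untreated replicate 2 in miR-151-3p and miR-100-5p (0.12 and 0.13). Groups were apart as lower in 46 of 176 arms (26.1%) and as higher in 1 (0.568%).

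The part of the other mismatched last bases in these differences was not tested. Mismatched C fell in 69 of 166 arms by the same test (41.6%), and in 62 without taurocholate replicate 1, of which 57 were among the 69. The test on mismatched G called 0 of 165 arms (0%), with 0 at an unadjusted p under 0.05. Its ratio was still higher with taurocholate in 165 of 165 arms, with a median log2 ratio of 1.57. Mismatched G was at 22.1% of reads in taurocholate replicate 1, against 1.54% and 1.90% in taurocholate replicates 2 and 3. The 0 calls thus do not show that G was unchanged. With the tailed shares rescaled by TMM factors so that the typical arm does not change, the median A log2 ratio moved from 0.24 to -0.01 and the calls became 15 higher and 14 lower. The median T log2 ratio moved from -0.24 to 0.05 and the calls became 16 higher and 17 lower. The 2 arms called for A and the 4 called for T kept their direction under that scaling. The A ratio of miR-21-5p, smaller than the median, was -0.0598 relative to it.

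By list, the direction of the A ratio was positive in 9 of 9 let-7 arms (median log2 ratio 0.51), 9 of 12 arms known from target-directed decay (0.20), 7 of 7 miR-30 arms (0.11), 5 of 8 arms of the miR-17-92 and related clusters (0.13) and 3 of 7 of the miR-10/99/100 and miR-125 list (-0.05). Over all 165 tested arms it was positive in 132, with a median of 0.24. Of these lists and the miR-148, miR-200 and miR-181 families, the test called 1 A arm, miR-148a-3p. The T ratio was negative in 8 of 8 arms of the miR-17-92 and related clusters (median -0.61) and 7 of 7 arms of the miR-10/99/100 and miR-125 list (-0.62). It was negative in 6 of 9 let-7 arms (-0.16) and 3 of 7 miR-30 arms, against 128 of 163 over all arms (-0.24). Called among them were miR-20a-5p and miR-100-5p.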

How the data were processed

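Small RNA of 3 untreated and 3 taurocholate-treated AR42J samples was sequenced as single reads on an Illumina NextSeq, per the labels' protocols. The submitters' processing notes name FastQC, cutadapt and Novoalign 2.07.11; the sources used here give neither their settings nor the genome build. Per the file headers, the deposited tables list each distinct read sequence with its count of reads, the miRNA precursor it aligned to and its mismatch; all alignments carry at most 1 mismatch. Reads were 16 to 28 nt long.

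Each sequence was counted once per library. Precursors (383) were placed on RefSeq hairpins (GRCr8) by their error-free reads (273) or by RefSeq gene length (100), which gave the arm. Of the arms with 1000 or more reads, 126 were placed on a RefSeq mature sequence through their hairpin. Of the A- or T-tailed reads 7.88% matched more than 1 precursor, and 99.7% lay in the arms with 1000 or more reads. Tailed reads per arm were tested with edgeR 4.0.16 (R 4.3.3) with the log of the arm's reads as offset, for arms with 10 or more tailed reads, and p-values were adjusted by the Benjamini-Hochberg method over all arms tested for that base. DESeq2 1.42.0 and limma 3.58.1 served as alternatives. Differences of overall shares were tested by exact permutation. On data simulated from the 165 arms tested for A, the test found 79% of arms changed 2-fold and 42% of those changed 1.5-fold, and for the 163 arms tested for T it found 78% and 26%. The simulated arms varied independently and changed in both directions alike, with no shift shared by a whole library. The real libraries had such shifts, as in the G of taurocholate replicate 1, so these rates may not hold for them. Without molecular identifiers, read counts cannot tell copies made in amplification from separate molecules. The labels do not say what equal replicate numbers share. Deviations from the group means correlated within each pair at r = 0.13, 0.46 and 0.28 over arms for A and at 0.16, 0.45 and 0.097 for T, so fits with the replicate number as a block are given beside both counts.

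Arms named in the text are, for each base, the 10 with the highest mean share, the 5 with most reads, the called arms or at least the 5 with the smallest p, and the 2 highest of each family list. The ends described by templated base and the arms' rank there were chosen after their values were seen. The members and lists were chosen with earlier results of these data known. Reads aligned to tRNAs were not used here.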

Additional observations from a re-analysis of the deposited data

How the results depend on the processing

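The A difference between treatments was positive under every alternative run (1.30 as a mean over arms to 3.44 with tailed plus error-free reads as the denominator), and leaving out 1 library gave 1.86 to 3.21; with the replicate block its sign-flip p was 0.25, the smallest 3 pairs allow. The T difference was -2.66 as a mean over arms and -0.0955 without taurocholate replicate 3, and 0.342 to 1.502 without any other single library, and 1.60 without both replicates 1; with the replicate block it was 0.583 (exact sign-flip p = 0.5). The count of arms with a changed A share, 2, was 16 with DESeq2, 5 with limma, 29 with arm reads times TMM factors, 0 with TMM scaling that ignores arm reads, 4 with arms of 10000 or more reads, 11 with body ends within 1 nt of the main end, 51 with the replicate block, 62 without both replicates 1 and 0 to 65 without 1 library. The count for T, 4, was 15, 33, 0, 14, 24 and 0 (replicate block) under DESeq2, TMM factors on arm reads, TMM without arm reads, arms of 10000 or more reads, near body ends and the block, 31 without both replicates 1 and 0 to 26 without 1 library. Whether the numbers pair the libraries is unsure: for T, untreated replicate 1 correlated more with taurocholate replicate 3 (r = 0.31) than with its own number (0.16), and for A, taurocholate replicate 1 correlated with untreated replicate 3 (r = 0.139) as much as with its own number (0.132). The 3p minus 5p difference for A was -0.0841 with arms of 100 or more reads, -0.408 with near body ends, 0.700 over reads with a templated last T, -0.691 without both replicates 1 and -0.894 to -0.686 without 1 library; for T it was 0.138 over reads with a templated last C, 13.3 without both replicates 1 and 12.2 to 13.8 without 1 library. With 5 libraries the exact sign-flip p cannot fall below 0.0625. Among single arms the log2 ratio changed sign for A in miR-21-5p (-0.0598, TMM factors on arm reads) and miR-7a-5p (-0.00324, TMM without arm reads), and for T in miR-148a-3p (-0.13 without taurocholate replicate 3, to 0.226 without taurocholate replicate 2), miR-21-5p (below 0 without untreated replicate 2, taurocholate replicate 2 or 3, in a range of -0.0755 to 0.264 without 1 library, and 0.354 without both replicates 1), miR-7a-5p (0.0670, single precursor), let-7i-5p (0.15, TMM factors on arm reads) and let-7f-5p (0.0783 with TMM factors on arm reads, -0.528 to 0.0434 without 1 library, where taurocholate replicate 1 gave the highest, and 0.0356 without both replicates 1). The cause was not tested. Requiring the body end within 1 nt of the main end took the T share of miR-23b-3p from 55.7% to 9.47% and the A share of miR-503-5p from 24.96% to 9.87%, since only part of their tails sit near the main end. Arms near 1000 reads give tailed shares from few reads per library.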

Other observations

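Some ends outside the families described carried a T at a high share over another templated base, and these arms were chosen after their values were seen. miR-221-3p over a templated A had 59.3% T among 11560 reads, and its cluster partner miR-222-3p over a templated G had 58.1% T among 3737 reads. miR-199a-5p over a templated A had 59.3% T among 1063 reads. miR-532-5p over a templated T was read as C in 27.8% of 1159 reads, and miR-210-3p, a miRNA induced by hypoxia, in 21.1% of 3707 reads, against quartiles of 12.2% and 13.3% over the 98 arms with such an end. miR-210-3p also had A at that end in 40.9% of reads, the second highest share of those 98 arms after miR-20a-5p. At the other extreme, miR-24-3p over a templated C had 4.1% A and 27.1% T among 26963 reads, and 67.5% of them carried the templated base.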
